A study of Rattus with 108 samples.

Results

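The genes described here are 4 genes of pain-sensing neurons in the dorsal root ganglia (abbreviated DRG), which hold the cell bodies of sensory neurons next to the spinal cord. They are the ion channel genes Trpv1 (ENSRNOG00000019486) and Scn10a (ENSRNOG00000032473) and the neuropeptide genes Calca (ENSRNOG00000011130) and Tac1 (ENSRNOG00000007374). The pairing of symbols and Ensembl IDs came with the choice of genes and not from the deposited tables. The genes were named first and then selected on measured values: a gene was kept if its median level in DRG at 0 day was at least 8 times that in skin and in muscle in both surgical models. All 4 met this rule, out of 32623 genes measured, and 1688 genes met it in all. The series profiled rats after skin/muscle incision and retraction (SMIR, used for chronic postsurgical pain) or lateral paw incision (LPI, used for acute postsurgical pain) by bulk RNA sequencing. DRG of the operated side came from levels C2 to C5 in SMIR at 0 day, 6 hours, 2 days, 10 days and 32 days. In LPI they came from levels C3 to C6 at 0 day, 6 hours, 2 days and 10 days. The 9 DRG groups held 4 libraries each, 20 libraries of SMIR and 16 of LPI, and strain, sex and age of the rats are not given in the sources used here. All rats had been anaesthetised with isoflurane and perfused with saline, and the labels do not say whether the 0 day animals had been operated on. One time code in the tables names no labelled time and was taken as 6 hours by elimination.

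Nociceptors are sensory neurons that respond to harmful heat, chemicals or pressure. Trpv1 encodes a cation channel opened by heat, acid and capsaicin, and Scn10a encodes the sodium channel NaV1.8, which carries much of the action potential in these neurons. Calca encodes calcitonin and, by alternative splicing, the calcitonin gene-related peptide CGRP, a vasodilator released from nerve endings. Tac1 is the precursor gene of substance P and neurokinin A, which are released from many of the same peptidergic endings. The messenger RNA is made in the cell body in the ganglion, and the proteins are carried along the axon to skin and muscle. In bulk samples, fewer neurons in a ganglion and less RNA per neuron cannot be told apart.

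Values below are CPM (the count of a gene scaled to the total count of its library) unless a sentence says otherwise. DRG libraries held 21371113 to 36223069 counts in total. Between genes, levels were compared only per length, as the deposited FPKM values. Over the 36 DRG libraries the median FPKM was 591 for Calca, 197 for Tac1, 71.6 for Scn10a and 33.0 for Trpv1. This order held within 35 of the 36 libraries. Ranked by median FPKM among 899 DRG-enriched genes (at least 5 CPM in DRG and at least 8 times the other tissues after adding 0.1 CPM), Calca was number 21, Tac1 number 63, Scn10a number 179 and Trpv1 number 333.

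The DRG levels far exceeded the threshold that chose the genes, and since these values chose the genes, the levels against skin and muscle are described and not tested. Median CPM of Calca at 0 day was 788 in SMIR DRG and 1195 in LPI DRG, and its median was 0 in muscle of both models and in LPI skin. Where a tissue's median was below 3 counts per library, that floor was used and the fold is a lower bound. On that basis Calca in DRG was at least 9568-fold above skin and at least 9900-fold above muscle in LPI, and 2772-fold above skin and at least 10040-fold above muscle in SMIR. Tac1 was at least 2418-fold above skin and at least 3173-fold above muscle in SMIR, and at least 3262-fold and at least 3375-fold in LPI. Scn10a was 141-fold above skin in SMIR, and it was at least 3123-fold above skin in LPI. The gene closest to the threshold was Trpv1, at 58.8-fold above skin and 143-fold above muscle in SMIR and at 358-fold and 111-fold in LPI.

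Before the time courses, 1 library has to be set apart. The SMIR 0 day DRG library with column number 4 had 2.27 CPM of Trpv1, 3.52 of Scn10a, 17.1 of Calca and 15.9 of Tac1. Relative to the mean of the other 0 day SMIR libraries, these levels were 1.76% for Trpv1, 0.618% for Scn10a, 2.07% for Calca and 6.01% for Tac1. The other 895 DRG-enriched genes were low in it as well, with a median of 4.55% and quartiles of 1.85% and 9.89%. It gave 14.9% of its counts to 176 muscle-enriched genes, against 0.0517% to 2.00% in the other 35 DRG libraries. DRG-enriched genes took 3.48% of its counts and 14.6% to 20.9% in the others. Over all genes its Spearman correlation was 0.933 with the mean of SMIR 0 day muscle and 0.918 with that of the other SMIR 0 day DRG libraries. It was also the 1 library without the order of FPKM levels given above, with 12.4 for Calca, 12.8 for Tac1, 0.512 for Scn10a and 0.614 for Trpv1. The SMIR 0 day medians and folds given above include it. Without it the SMIR 0 day DRG medians were 826 CPM for Calca, 268 for Tac1, 599 for Scn10a and 130.0 for Trpv1. Tests that use it were run with it and without it, but not every value is printed for both.

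After paw incision both neuropeptide genes were lower in DRG at 2 and 10 days than at 0 day, and neither channel gene passed the test at any time. Calca had 1361, 1181, 1209 and 908 CPM in the LPI libraries of 0 day and 973, 842, 854 and 858 CPM at 6 hours. At 2 days it had 874, 743, 745 and 765 CPM, and at 10 days 870.0, 775, 861 and 861 CPM. All libraries of 2 and 10 days lay below all libraries of 0 day, and at 6 hours 3 of 4 did. The share of all genes without such overlap was not counted, here or for the genes below, so overlap is only a description. TMM scaling factors of these libraries ran from 0.897 to 1.01 at 0 day and from 1.02 to 1.07 at 2 days, and they enter the fold changes but not the CPM. The log2 fold changes were −0.45 at 6 hours (SE 0.12, edgeR adjusted p = 0.374), −0.72 at 2 days (SE 0.12, adjusted p = 0.0155) and −0.59 at 10 days (SE 0.12, adjusted p = 0.0281).

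Tac1 followed nearly the same course in LPI. It had 464, 401, 414 and 279.5 CPM at 0 day and 319.9, 256, 280.4 and 298 CPM at 6 hours. At 2 days it had 257, 247, 219 and 232 CPM, and at 10 days 274, 257, 276 and 239 CPM. The groups of 2 and 10 days did not overlap with 0 day, while that of 6 hours did, with 1 library below the range of 0 day. Its log2 fold changes were −0.49 at 6 hours (SE 0.14, edgeR adjusted p = 0.418), −0.85 at 2 days (SE 0.14, adjusted p = 0.0155) and −0.70 at 10 days (SE 0.14, adjusted p = 0.0281). The lowest 0 day value of both peptides was in library number 4, which lay close to the later groups.

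So 2 of the 4 genes fell at 2 days, where 11.8% of 16400 tested genes fell and 19.3% changed in either direction. The same 2 fell at 10 days, where 9.21% fell and 14.2% changed. The counts over all genes rested on single libraries too. At 2 days the 3169 genes called became 0 without number 5 of 2 days and 343 without number 1 of 0 day. At 10 days the 2329 genes called became 0 to 4 without any 1 of 7 libraries and 5 with only the groups compared, and 4363 without number 4 of 0 day. At 6 hours edgeR called none of the 4, both peptides had an unadjusted p under 0.05, and DESeq2 gave an adjusted p of 0.0544 for Calca and 0.0864 for Tac1. At that time edgeR called 0 genes in all, with 1179 at an unadjusted p under 0.05, and DESeq2 called 64. Among the 899 DRG-enriched genes, 12 had a lower log2 fold change than Calca and 4 a lower one than Tac1 at 2 days. The other 895 had a median log2 fold change of 0.06 at 2 days, with 43 higher and 98 lower, and of 0.08 at 10 days, with 35 higher and 72 lower.

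These calls depended on single libraries. Without the 2 day library number 5 the 2 day calls of both peptides were lost (edgeR adjusted p = 0.0590 for each), and they held without any 1 of the other 7 libraries. At 10 days both calls were lost without any 1 of 7 libraries, namely numbers 1, 2 and 3 of 0 day and numbers 4, 5, 6 and 7 of 10 days, with adjusted p between 0.0508 and 0.0935. They held without number 4 of 0 day (adjusted p = 0.00277 for Calca and 0.00146 for Tac1). Leaving out that same library also brought the 6 hour values past the threshold (adjusted p = 0.0335 for Calca and 0.0167 for Tac1).

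The channels took another course in LPI. Scn10a had 237, 419, 361 and 478 CPM at 0 day and 465, 305, 494 and 411 CPM at 6 hours. It had 470.1, 433, 557 and 505 CPM at 2 days and 487, 491, 484 and 483 CPM at 10 days. The 10 day libraries all lay above those of 0 day, which spread widely, with number 1 lowest. The log2 fold changes of Scn10a were 0.13 (SE 0.15), 0.28 (SE 0.15) and 0.28 (SE 0.15) at 6 hours, 2 days and 10 days, with edgeR adjusted p of 0.871, 0.187 and 0.196. The 95% interval at 10 days ran from −0.03 to 0.59.

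Trpv1 varied little in LPI. Its libraries had 108, 136, 112 and 129.9 CPM at 0 day and 147, 119, 126 and 115 CPM at 6 hours. They had 123, 109.7, 119 and 114 CPM at 2 days and 127, 123, 126 and 119.9 CPM at 10 days. All later groups overlapped with 0 day. The log2 fold changes were 0.02, −0.19 and −0.08 (SE 0.08 each), with edgeR adjusted p of 0.968, 0.0960 and 0.472, and DESeq2 called the 2 day value (adjusted p = 0.0487), as it did 27.7% of the 15115 genes with an adjusted p.

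**Figure D1:**
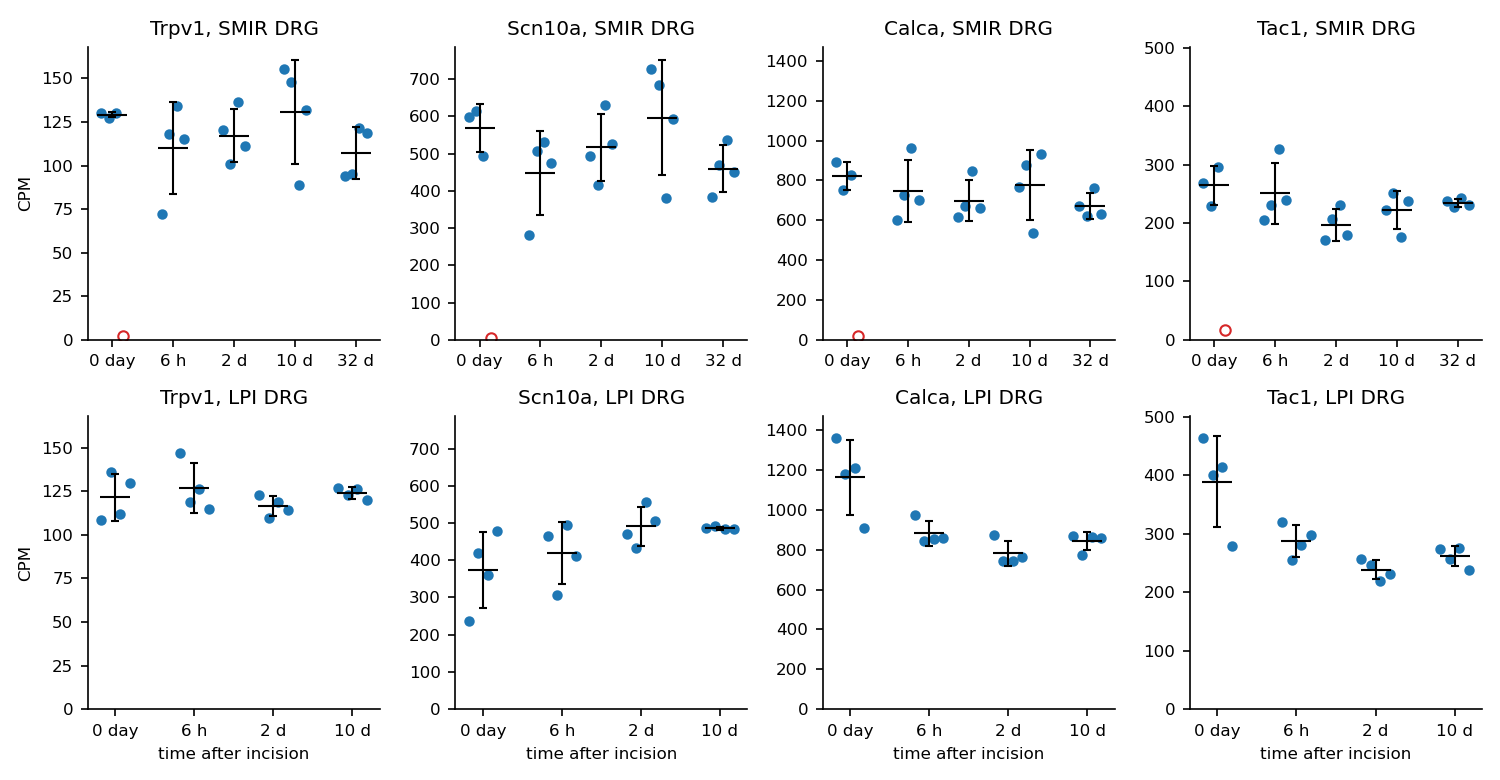
CPM (y axis, from 0) of the 4 genes in each DRG library by time after incision, with SMIR in the upper row and LPI in the lower row. Points are libraries, bars the mean with SD, and the open red circle is the SMIR 0 day library number 4, which is left out of its mean. Calca and Tac1 of LPI sit highest at 0 day, while Trpv1 of LPI lies between 108 and 147 CPM at all times.

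The course in LPI went together with a property of the libraries, the gene-length trend (the slope, across genes, of a library's log2 CPM deviation on log2 gene length). A positive slope means that long genes had relatively more counts. In LPI DRG the slope was −0.224, −0.0951, −0.0720 and 0.0187 at 0 day and ran from −0.154 to 0.0564 at 6 hours. It ran from 0.0588 to 0.127 at 2 days and from 0.0668 to 0.0831 at 10 days, with no overlap with 0 day. From the ratio of CPM to FPKM, the gene lengths were 1.22 kb for Tac1, 1.36 kb for Calca, 3.67 kb for Trpv1 and 6.76 kb for Scn10a. The groups of higher slope, those of 2 and 10 days, had lower levels of the short genes Calca and Tac1. Number 3 of 6 hours had the second lowest slope of the 16 libraries, −0.154, with 842 CPM of Calca and 256 CPM of Tac1. It also had the lowest share of DRG-enriched counts of these libraries, 14.6%. Set against the counts of the other DRG-enriched genes, its Calca was 0.584%, the highest of 6 hours. Its Scn10a was the lowest of 6 hours, at 305 CPM. What set the levels of this library was not tested.

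With the slope as a covariate in the edgeR fit, the log2 fold changes at 2 days were −0.37 for Calca (SE 0.12, adjusted p = 0.477) and −0.48 for Tac1 (SE 0.15, adjusted p = 0.477). At 10 days they were −0.25 for Calca and −0.34 for Tac1 (adjusted p = 0.885 for each). The value of Scn10a changed sign, to −0.17 at 2 days (adjusted p = 0.690) and −0.16 at 10 days (adjusted p = 0.898), and that of Trpv1 was still −0.19 and −0.08. This fit called 0 of 16400 genes at either time (0.0122% at 6 hours), where the peptides kept −0.37 for Calca and −0.40 for Tac1 (adjusted p = 0.132 and 0.211). Since the slopes of 2 and 10 days did not overlap with those of 0 day, slope and time cannot be told apart there.

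**Figure D2:**
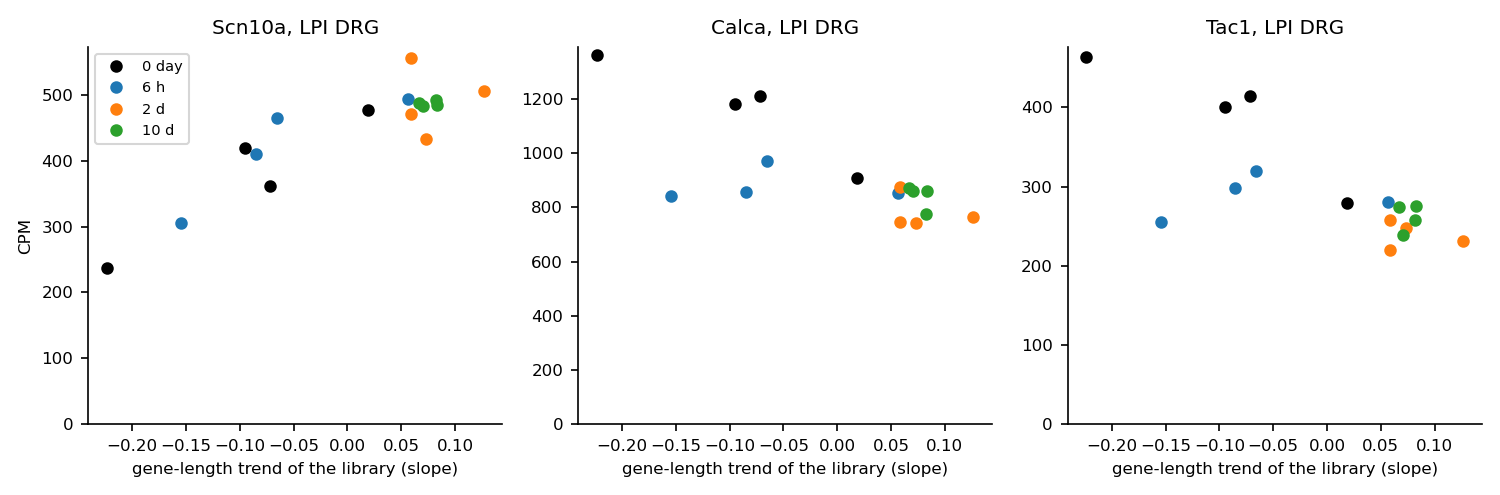
CPM of Scn10a, Calca and Tac1 (y axes, from 0) against the gene-length trend of the library (x axis, slope) in the 16 LPI DRG libraries, coloured by time. The 2 and 10 day libraries have slopes from 0.0588 to 0.127 and those of 0 day from −0.224 to 0.0187; the 0 day library number 1, at the lowest slope, has the highest Calca and Tac1 and the lowest Scn10a.

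Ratios within a library need no scaling of library sizes, but channels over peptides sets the longer genes over the shorter ones. The gene-length slope can therefore enter this ratio, and its part in it was not tested. The summed CPM of both channels over that of both peptides was 0.189, 0.351, 0.292 and 0.512 in the LPI libraries of 0 day. It ran from 0.387 to 0.547 at 6 hours, from 0.524 to 0.701 at 2 days and from 0.537 to 0.595 at 10 days, so the libraries of 2 and 10 days lay above all of 0 day. Calca over Tac1 stayed between 2.88 and 3.60 in all 16 LPI libraries. Within 0 day, channels over peptides was lowest in number 1, with a slope of −0.224, and highest in number 4, with a slope of 0.0187. Slope and time cannot be told apart in this ratio either. These ratios are not per length and serve only to compare libraries.

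After SMIR no member passed the test at any time, with or without the 0 day library number 4, and DESeq2 called none of them either. Calca had 891, 750.0, 826 and 17.1 CPM at 0 day, the last in number 4. It had 601, 725, 964 and 699 CPM at 6 hours and 615, 673, 845 and 662 CPM at 2 days. At 10 days the values were 766, 876, 534 and 934 CPM, and at 32 days 670.3, 619, 761 and 632 CPM. Each later group overlapped with 0 day. The log2 fold changes of Calca at 6 hours, 2, 10 and 32 days were 0.31, 0.21, 0.34 and 0.12 with all libraries (SE 0.56 each) and −0.08, −0.19, −0.06 and −0.28 without number 4 (SE 0.14 each).

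Tac1 had 268, 229.6, 295 and 15.9 CPM in SMIR DRG at 0 day and 205, 231, 327 and 238 CPM at 6 hours. The values were 171, 207, 231 and 180.1 CPM at 2 days, 222, 251, 176 and 238 at 10 days, and 237, 227, 242 and 231 at 32 days. Leaving number 4 aside, 3 of 4 libraries of 2 days and 2 of 4 of 10 days lay below the range of 0 day. The 2 day value was the only one of these genes after SMIR with an unadjusted p under 0.05, −0.38 without number 4 (SE 0.13, edgeR adjusted p = 0.923), and it was 0.00 with number 4 (SE 0.44).

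Scn10a had 599, 615, 495 and 3.52 CPM at 0 day and 282, 507, 532 and 474 CPM at 6 hours. It had 493, 417, 632 and 525 CPM at 2 days, 728, 685, 381 and 592 at 10 days, and 382, 470.5, 536 and 449.7 at 32 days. Without number 4 its log2 fold changes were −0.29, −0.10, 0.09 and −0.30 (SE 0.17 each), with the interval at 32 days from −0.65 to 0.06. With number 4 they were 0.11, 0.32, 0.50 and 0.12 (SE 0.68 each).

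Trpv1 had 130.0, 127, 130.3 and 2.27 CPM at 0 day and 72.4, 118, 134 and 115 CPM at 6 hours. It had 121, 101, 136 and 111 CPM at 2 days, 156, 148, 88.7 and 132 at 10 days, and 93.9, 95.2, 122 and 119 at 32 days. Without number 4 all 32 day libraries lay below those of 0 day, with a log2 fold change of −0.26 (SE 0.15, edgeR adjusted p = 0.971). How many of all genes lay apart in this way was not counted. With number 4 the same value was 0.15 (SE 0.57, adjusted p = 0.913). The 6 hour library number 1 and the 10 day library number 5 were the lowest of their groups in all 4 genes. They also had low shares of DRG-enriched counts, 14.8% and 14.7%, and the first had the highest muscle-enriched share, 2.00%, apart from SMIR 0 day number 4; their part in the values of their groups was not tested.

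In SMIR DRG edgeR called 0 of 17134 genes at each time. At an unadjusted p under 0.05 there were 1211, 1577, 1172 and 1602 genes at 6 hours, 2, 10 and 32 days, and DESeq2 called 19, 10, 10 and 14. Without number 4 edgeR called 0 of 17343, with 1560, 922, 953 and 899 genes at an unadjusted p under 0.05. The median log2 fold change of the other DRG-enriched genes lay between 0.26 and 0.35 over the 4 times with number 4, and between −0.09 and 0.00 without it. Without number 4, 18 of the 899 DRG-enriched genes had a lower log2 fold change than Tac1 at 2 days. For Calca, Scn10a and Trpv1 these were 129, 266 and 267. At 10 days 92 were lower than Tac1, 388 than Calca, 702 than Scn10a and 612 than Trpv1. At 32 days 120 were lower than Tac1, 37 than Calca, 33 than Scn10a and 46 than Trpv1.

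**Figure D3:**
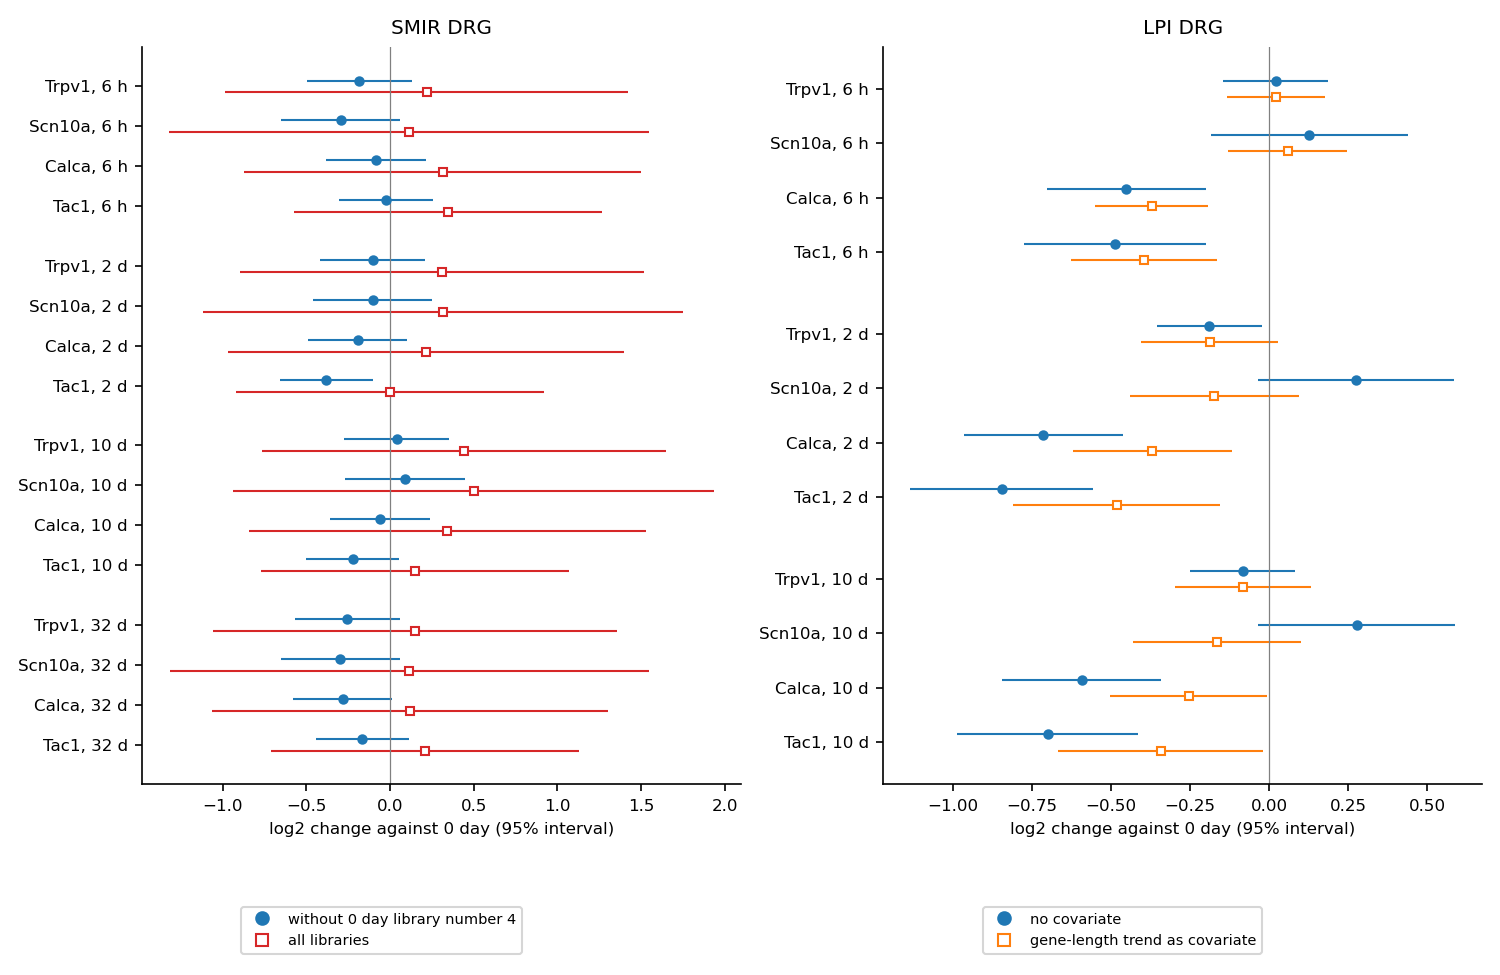
Log2 change against 0 day of the 4 genes with 95% intervals (x axis) by gene and time (y axis). For SMIR, filled circles leave out the 0 day library number 4 and open squares use all libraries; for LPI, open squares have the gene-length trend as a covariate. Calca and Tac1 of LPI at 2 and 10 days are the points farthest below 0, and all SMIR intervals with number 4 include 0.

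The design sets chronic against acute pain, which calls for the SMIR change minus the LPI change. This difference passed for none of the 4 genes at any time in edgeR, and the model goes together with the site of surgery, the ganglion levels and the animals. At 2 days it was 0.93 for Calca (SE 0.62, edgeR adjusted p = 0.358) and 0.85 for Tac1 (SE 0.49, adjusted p = 0.284). Without SMIR 0 day number 4 it was 0.53 for Calca (SE 0.19, adjusted p = 0.0871) and 0.47 for Tac1 (SE 0.20, adjusted p = 0.131). Without that library DESeq2 called the Calca difference (adjusted p = 0.0376), as it did 16% of the 12078 genes with an adjusted p. At 10 days the values without it were 0.53 for Calca (adjusted p = 0.136) and 0.47 for Tac1 (adjusted p = 0.181), and the unadjusted p of both genes was under 0.05 at 2 and 10 days. Scn10a gave −0.37 at 2 days and −0.19 at 10 days and Trpv1 0.09 and 0.12, none with an unadjusted p under 0.05. In all, edgeR called 5.57% of 17367 genes at 2 days (4.62% of 17523 without that library), 0.0115% at 10 days and 0 genes at 6 hours (1550 at an unadjusted p under 0.05, 27 by DESeq2). With the gene-length slope as a covariate edgeR called 8.38% of 17367 genes at 2 days with all libraries and 0 of 17523 without number 4. The difference at 2 days was then 0.28 for Calca (SE 0.22, edgeR adjusted p = 0.914), 0.11 for Tac1 (SE 0.22, adjusted p = 0.972) and 0.24 for Scn10a (SE 0.21, adjusted p = 0.922), all without number 4.

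The 0 day levels of both models went into the rule that chose the genes, so their difference is given as a description, and nothing is read from the counts of calls. Without number 4 of SMIR, Calca averaged 822 ± 70.8 CPM in SMIR (SD, n = 3) and 1165 ± 188 CPM in LPI (SD, n = 4), with a log2 fold change of −0.63 (SE 0.14) and no overlap. Tac1 averaged 264 ± 33.0 CPM in SMIR and 389.6 ± 78.2 CPM in LPI, a log2 fold change of −0.68 (SE 0.15) with overlapping libraries. Scn10a averaged 569 ± 64.9 CPM in SMIR and 374 ± 103 CPM in LPI, a log2 fold change of 0.50 (SE 0.17) with no overlap. Trpv1 averaged 129 ± 1.59 CPM in SMIR and 122 ± 13.4 CPM in LPI, a log2 fold change of −0.03 (SE 0.13). With all libraries the log2 fold changes were −1.07 for Tac1 (SE 0.35) and −1.04 for Calca (SE 0.44). The edgeR fit called 1 of 4 genes with all libraries, where 19.1% of 17367 genes were called, and 3 of 4 without number 4, where 18.5% of 17523 were. On the gene-length slope computed over both models together, these 3 SMIR libraries ran from 0.0342 to 0.0783 and LPI from −0.248 to −0.00650. The slopes did not overlap, so slope and model cannot be told apart here. With the slope as a covariate and without number 4 the log2 fold changes were −0.40 for Calca, −0.36 for Tac1 and −0.05 for Scn10a, and edgeR called 0 of 17523 genes.

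Across libraries Calca and Tac1 were each the gene most like the other, by Pearson's r of log2(CPM + 1) among 14380 genes with a median of at least 1 CPM in both models. The r was 0.975 over 16 LPI libraries and 0.982 over 20 SMIR libraries, and the lower of both decided the rank. Without number 4 the r in SMIR was 0.712, which put Tac1 at rank 4 for Calca and Calca at rank 7 for Tac1. By the same measure and with all libraries the gene most like Trpv1 was ENSRNOG00000001575 (0.878 in LPI, 0.991 in SMIR) and that most like Scn10a was ENSRNOG00000016156 (0.977 and 0.981). Without number 4 they were other genes, ENSRNOG00000047080 for Trpv1 (0.773 in LPI, 0.839 over 19 SMIR libraries) and ENSRNOG00000019482 for Scn10a (0.954 and 0.972). Scn10a and Trpv1 had an r of −0.05 in LPI and, without number 4, 0.906 in SMIR. Scn10a and Calca had −0.73 in LPI and 0.55 in SMIR without number 4. These libraries share their groups and the gene-length slope, so the values are descriptive.

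Outside the ganglion, transcripts of the 4 genes were rare. Calca did not exceed 1.31 CPM in any skin or 0.328 CPM in any muscle library, and Tac1 did not exceed 0.407 and 0.451 CPM. Trpv1 had a median of 0.952 CPM in skin and 0.875 CPM in muscle. Scn10a had 0 counts in all 16 LPI skin libraries, which at 0 day allows up to 0.0311 CPM (3 counts over the summed libraries, counting error only). In SMIR skin, however, it had fewer counts at 6 hours, 2 days and 10 days than at 0 day. These values were singled out after they were seen, and the 0 day skin level was used by the rule that kept the gene, so they are a description with no test.

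Scn10a had 3.17, 2.99, 4.58 and 5.79 CPM in SMIR skin at 0 day, which are 96, 85, 125 and 173 counts. It had 7, 8, 3 and 10 counts at 6 hours, 0, 0, 0 and 4 counts at 2 days, 5, 0, 0 and 0 counts at 10 days, and 29, 159, 0 and 62 counts at 32 days. Groups of 6 hours, 2 days and 10 days did not reach the 0 day range, while the 32 day libraries spread from 0 to 5.31 CPM. The summed CPM was 0.0578 times that of 0 day at 6 hours (95% interval 0.0380 to 0.0846), 0.00774 times at 2 days (0.00210 to 0.0199), 0.0104 times at 10 days (0.00337 to 0.0245) and 0.533 times at 32 days (0.455 to 0.622). These intervals cover counting error only, and the sums of 2 and 10 days rest on 1 library each.

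The gene-length slope of SMIR skin was 0.0512 to 0.0878 at 0 day, −0.0522 to −0.00395 at 6 hours, −0.130 to −0.0920 at 2 days and 0.0292 to 0.0741 at 10 days. Slope and time cannot be told apart at 6 hours and 2 days, where the slopes did not overlap with 0 day. At 10 days they overlapped with 0 day.

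Trpv1 in SMIR skin had 1.31, 0.624, 1.19 and 0.732 CPM at 10 days, against 2.25, 0.9503, 2.13 and 4.11 CPM at 0 day. The 10 day libraries were mostly lower, but the groups overlapped. Relative to 0 day, the summed CPM of Trpv1 in SMIR skin was 0.995 times at 6 hours and 0.574 times at 2 days. It was 0.412 times at 10 days and 0.799 times at 32 days. In LPI skin it was 0.728 times at 6 hours, 2.6 times at 2 days and 1.405 times at 10 days. The LPI libraries of 2 days had 0.364 to 1.53 CPM, and those of 0 day 0.21 to 0.514 CPM, with overlap. Trpv1 in skin was not tested.

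**Figure D4:**
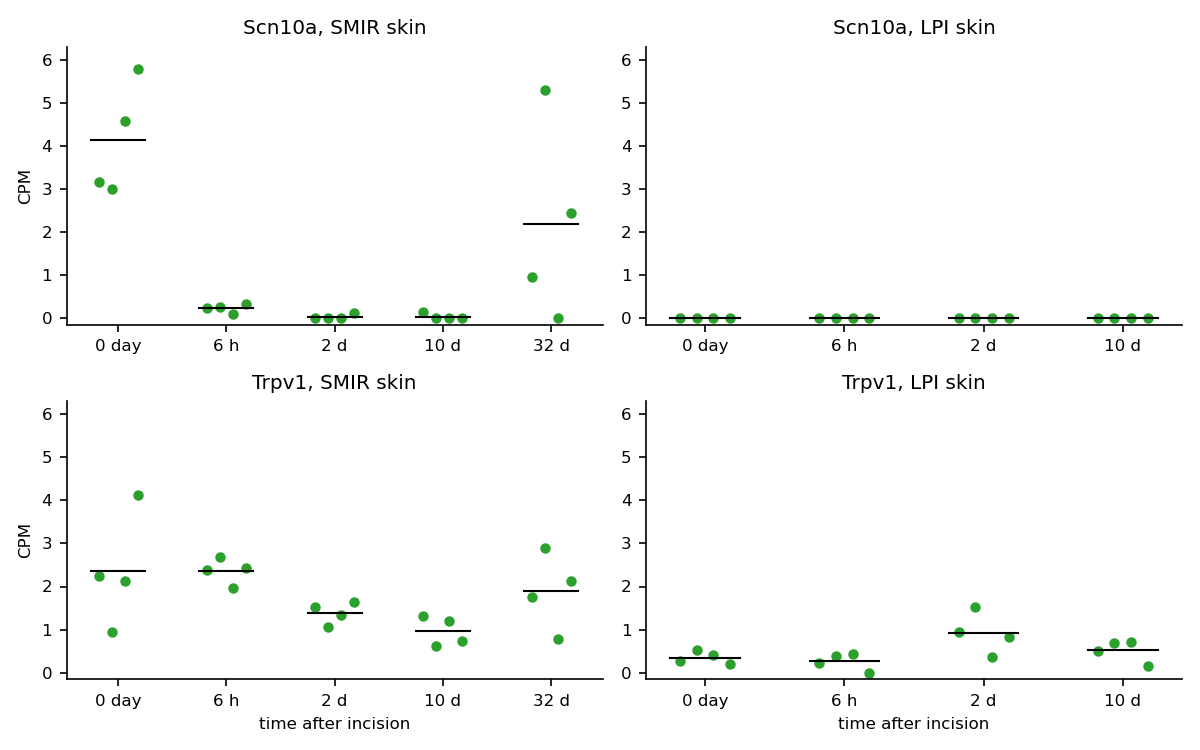
CPM (y axis) of Scn10a and Trpv1 in each skin library by time after incision, with SMIR on the left and LPI on the right; points are libraries and lines the group means. Scn10a sits between 2.99 and 5.79 CPM in SMIR skin at 0 day, at or below 0.333 CPM at 6 hours, 2 and 10 days, and at 0 in all LPI skin libraries.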

How the data were processed

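The submitters' processing notes name FastQC 0.11.2, STAR, StringTie and the builds rn6 and hg38, without their roles. Libraries were strand-specific TruSeq libraries of total RNA, per the labels' protocols. The authors deposited whole-number counts per gene, not normalized, and FPKM values, in 1 table of each kind for each model and tissue (108 libraries). Counting settings and annotation are not given in the sources used here. Columns were matched to groups by model, time and tissue, and libraries are named by the number in the column. Within DRG groups, 54 pairs of libraries were compared, and none agreed within sampling noise (lowest chi-square per degree of freedom 11.8). The protocol speaks of pooled RNA while the labels number 36 rats, so p-values measure the spread between libraries.

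The quasi-likelihood test of edgeR 4.0.16 (R 4.3.3) was run on the counts (filterByExpr, TMM scaling, glmQLFit with robust estimation, glmQLFTest, two-sided), fitting all times of a model together and adjusting over all tested genes (Benjamini-Hochberg, under 0.05). DESeq2 1.42.0 was an alternative. The deposited FPKM values gave levels per length and gene lengths. The test was tried on simulated counts first. Alternatives were RLE scaling, no filter on low counts, only the groups compared, a replicate block, the gene-length slope as covariate, library sizes from DRG-enriched genes and leaving out each library. Fits that combine the absence of SMIR 0 day number 4 with another change were added after the data were seen. A fit of SMIR skin, also tried then, is not reported, since the rule used its 0 day levels. The 4 genes and all lists were chosen with earlier results of these data known. Named genes were the 4 members and the gene most like each. The reference of 47357 rat genes paired 0 with an Ensembl ID, so lists of symbols and cell type markers could not be used, and tissue-enriched genes stood in.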

Additional observations from a re-analysis of the deposited data

Results flagged for a closer look

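Dixon's criterion was applied to 46 sets of 4 values, each 1 gene in 1 group. They were the 4 genes in the DRG groups, and Scn10a and Trpv1 in the SMIR skin groups. In 7 sets a library lay far from the other 3, which chance gives for about 1 in 20 independent sets. These sets share libraries and are not independent, and that rate does not hold where the other libraries are all at 0. The SMIR 0 day DRG library number 4 was low for Trpv1, at 2.27 CPM against 127 to 130 CPM in the others, and for Calca, at 17.1 CPM against 750 to 891 CPM. Calca was high in LPI DRG number 2 of 6 hours, at 973 CPM against 842 to 858 CPM, and in number 1 of 2 days, at 874 CPM against 743 to 765 CPM. It was low in LPI DRG number 5 of 10 days, at 775 CPM against 861 to 870 CPM. Scn10a in SMIR skin was above 0 in 1 library of 2 days, number 6 at 0.133 CPM, and in 1 of 10 days, number 3 at 0.156 CPM, where the others had 0.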

How the results depend on the processing

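The number of the 4 genes called was 2 at 2 days in LPI DRG, and 0 with the replicate block, with the length covariate and without 2 day number 5 (range 0 to 2 over single libraries left out). At 10 days it was 2, and 0 with the block, with the covariate and with only the groups compared (range 0 to 2). At 6 hours it was 0, with a range of 0 to 2. The column numbers shared between times were not taken as pairs in the main fit. Of same-numbered pairs, 2 of 14 in LPI and 11 of 29 in SMIR had a correlation of deviations over 0.1. That share was not counted for pairs of different number. The median was −0.0863 for same and 0.0520 for different numbers in LPI, and 0.0546 and 0.00824 in SMIR. These values do not settle whether shared numbers mark pairs. The replicate block gave an adjusted p of 0.0667 for both Calca and Tac1 at 2 days and 0.646 at 10 days. For SMIR minus LPI at 2 days 0 was called, and 1 without SMIR 0 day number 4 with DESeq2. For SMIR against LPI at 0 day, where nothing is read from the counts, 1 was called, 0 with the block or only the groups compared, 2 with library sizes from DRG-enriched genes, and 0 to 3 without single libraries. Without number 4 the count was 3, 3 with DESeq2 or DRG-enriched library sizes, and 0 with the covariate. Over 44 single-gene results and 852 alternatives, 713 kept direction and call, 32 lost and 11 gained a call, none reversed a call, and 96 changed sign with no call on either side, 64 of them without number 4. Under RLE scaling, no filter and DESeq2 the 2 and 10 day calls of the peptides in LPI held. The cause of these changes was not tested. With 4 libraries per group changes can be missed, and not only small ones. In the simulated counts, made without SMIR 0 day number 4, changes were given to genes drawn from all tested genes. For LPI at 2 days 61% of 2-fold and 27% of 1.5-fold changes were recovered. For SMIR at 2 days the shares were 59% and 19%, and for SMIR minus LPI at 2 days 33% and 11%. Of the genes called, 3.3% for LPI, 3.7% for SMIR and 10.2% for SMIR minus LPI had been given no change. The simulated libraries were given no gene-length slope, unlike the measured ones. The low skin counts limit all ratios there.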
